A study of Mus musculus with 2 samples.

Results

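The cells described here were chosen by measured mRNA levels: they were control cells that carried the mRNA of titin, Ttn, at 300 CPM or more while the mRNA of cardiac alpha-actin, Actc1, lay under 150 CPM. CPM stands for unique molecular identifiers (UMIs, 1 per captured mRNA molecule) of a gene, counted per 1000000 UMIs of the cell or group. The rule also asked for fewer than 2 UMIs of Isl1, fewer than 3 UMIs of Dcn plus Lum, and no UMI of Upk3b or Cdh5, which are genes of cardiac progenitors, mesenchyme, mesothelium and endothelium. Of 6354 control cells, 366 met it, a share of 5.76% (exact Clopper-Pearson 95% interval 5.20 to 6.36%). They are called Ttn+ Actc1-low cells below. Their working name places Ttn before Actc1, but 1 day was sampled, so the data show a combination of levels and no order in time.

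The study set a Zbtb16 knockout beside a control of genotype WT, 1 single-cell library each, to look at the cells that Zbtb16 bears on. Both were made from D3, a mouse embryonic stem cell line, and both were taken on day 6 of cardiomyocyte differentiation. The differentiation agents, and whether the knockout is 1 clone, are not given in the sources used here. With 1 library per genotype, and with cells of 1 library not being replicates, no difference below has a replicate check or a test. Sums of UMIs carry exact Poisson 95% intervals and shares exact Clopper-Pearson intervals, which cover counting error only.

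The sarcomere, the contractile unit of heart muscle, is built of thick filaments of myosin and thin filaments of actin with the troponin complex, anchored in the Z-disc and the M-band. Titin is its giant elastic protein and spans from the Z-disc to the M-band, and Actc1 encodes the main actin of the thin filament in the heart. In the embryo, heart muscle arises from mesodermal progenitors under transcription factors of the Gata, Tbx, Mef2, Hand and Nkx2 families, with serum response factor binding CArG boxes and Mef2 factors binding A/T-rich sites in many muscle promoters.

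The promoters of 4 genes used to choose or describe the cells are shown, as RefSeq gives them on GRCm38.p6. That build is older than the one in the submitters' processing notes. Each runs from 250 bases before to 50 bases after the annotated start. Ttn (chr2:76982498-76982797, minus strand) and Actc1 (chr2:114052826-114053125, minus strand) define the cells, and Myl7 (chr11:5898733-5899032, minus strand) is a myosin light chain seen in them. Sfrp5 (chr19:42202203-42202502, minus strand) is a Wnt antagonist listed among their markers, which was also high in cells with Actc1 at 150 CPM or more. Capitals mark motif matches.
Ttn: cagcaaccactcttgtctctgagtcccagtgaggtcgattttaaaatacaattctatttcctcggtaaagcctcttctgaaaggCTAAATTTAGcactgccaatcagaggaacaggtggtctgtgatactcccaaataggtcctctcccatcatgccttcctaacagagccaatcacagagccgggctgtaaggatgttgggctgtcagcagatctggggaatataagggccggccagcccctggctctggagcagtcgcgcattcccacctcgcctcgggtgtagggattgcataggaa
Actc1: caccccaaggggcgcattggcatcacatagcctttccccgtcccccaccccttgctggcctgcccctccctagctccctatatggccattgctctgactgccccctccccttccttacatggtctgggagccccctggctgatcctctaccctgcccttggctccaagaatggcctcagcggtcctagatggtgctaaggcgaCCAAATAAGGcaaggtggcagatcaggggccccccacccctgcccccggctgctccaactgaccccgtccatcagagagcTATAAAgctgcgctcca
Myl7: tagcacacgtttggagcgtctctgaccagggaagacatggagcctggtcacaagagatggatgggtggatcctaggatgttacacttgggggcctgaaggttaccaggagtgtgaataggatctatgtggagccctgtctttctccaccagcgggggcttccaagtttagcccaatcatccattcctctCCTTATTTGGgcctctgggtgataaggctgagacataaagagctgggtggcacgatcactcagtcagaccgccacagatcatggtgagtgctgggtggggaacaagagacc
Sfrp5: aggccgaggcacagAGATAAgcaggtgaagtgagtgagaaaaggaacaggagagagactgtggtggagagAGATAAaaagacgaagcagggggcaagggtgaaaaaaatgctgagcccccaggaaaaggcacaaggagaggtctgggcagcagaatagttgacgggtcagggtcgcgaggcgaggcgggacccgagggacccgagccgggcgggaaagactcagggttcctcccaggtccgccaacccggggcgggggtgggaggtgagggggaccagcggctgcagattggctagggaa
Both strands were searched for AGATAA, which is bound by factors of the Gata family. They were also searched for TATAAA, which occurs in core promoters, for AGGTCA, which is bound by nuclear receptors, and for the MEF2 and CArG motifs by name. The Ttn window held a MEF2 match whose first base lies 166 bases before the start. The Actc1 window held a CArG match 47 bases before the start and a TATAAA match at base 34 after it, and the Myl7 window held a CArG match 61 bases before the start. The Sfrp5 window held AGATAA at 236 and at 180 bases before the start. Among all 32544 RefSeq mouse promoters of 300 bases, 11.2% held AGATAA, 13.6% TATAAA, 16.2% AGGTCA, 3.16% a MEF2 match and 1.64% a CArG match, so a match is a description of these letters and not a site.

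The targeted gene behaved as labelled. Zbtb16 had 0.994 CPM (0.891 to 1.11) in the knockout library and 22.2 CPM (21.7 to 22.8) in the control library. In the control it had 22.6 CPM in Ttn+ Actc1-low cells and 22.2 CPM in the other control cells. The libraries held 357324373 UMIs in the knockout and 308465930 in the control, with medians of 30513 and 37324 UMIs per cell. They shared 16 cell barcodes, none of them of a Ttn+ Actc1-low cell.

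Ttn and Actc1, which chose the cells, are given as a description. Of the 6354 control cells, 1718 had Ttn at 300 CPM or more, and 990 of these had Actc1 under 150 CPM. The other limits kept 366 of the 990, or 37.0%; 422 failed by Isl1 alone and 95 by Upk3b alone. In the 366 cells the Ttn level ran from 301 to 3743 CPM with a median of 680 CPM, and a cell held at least 5 Ttn UMIs, with a median of 19. Actc1 was at 0 UMIs in 203 of them (55.5%), and its highest level was 145 CPM, or at most 7 UMIs. The other combination was scarcer: of 344 cells within the same limits with Actc1 at 150 CPM or more, 31 (9.01%) had Ttn under 300 CPM, while of 679 such cells with Ttn at 300 CPM or more, 366 (53.9%) had Actc1 under 150 CPM. Over all control cells, 123 of 851 cells with Actc1 at 150 CPM or more (14.5%) had Ttn under 300 CPM. Between 300 and 350 CPM of Ttn lay 42 Ttn+ Actc1-low cells and between 250 and 300 CPM lay 40 cells, and 29 of the 366 had Actc1 between 100 and 150 CPM beside 20 cells with Ttn at 300 CPM or more and Actc1 between 150 and 200 CPM.

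**Figure D1:**
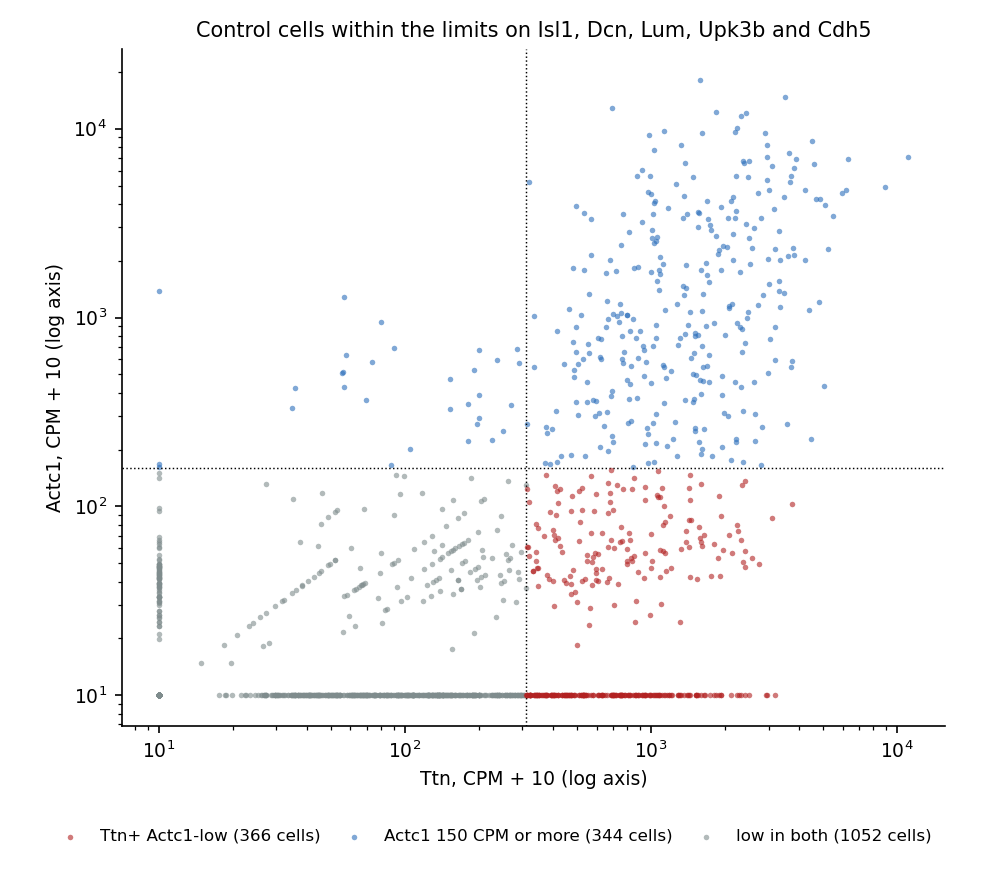
Actc1 against Ttn in single control cells, both as CPM + 10 on log axes, for Ttn+ Actc1-low cells, cells with Actc1 at 150 CPM or more and cells low in both, with dotted lines at 300 CPM of Ttn and 150 CPM of Actc1. The cells spread across both lines without a gap, and few cells (31 of 344) lie above the Actc1 line with Ttn left of its line.

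3 control groups within the same limits on the other genes serve for comparison, beside all 5988 other control cells. The 238 cells with Actc1 at 500 CPM or more are called high-Actc1 cells and the 106 cells with 150 to under 500 CPM intermediate-Actc1 cells, 344 Actc1-positive cells in all. The 1052 cells with Ttn under 300 CPM and Actc1 under 150 CPM are called cells low in both. Median depth was 26104 UMIs in Ttn+ Actc1-low cells, 27478 in intermediate-Actc1 cells, 25450 in high-Actc1 cells, 32009 in cells low in both and 38363 in the other control cells. Limits set in UMIs remove deeper cells more often: of the cells past the Ttn and Actc1 limits, those kept had a median of 26104 UMIs and those removed 37260. All genes of a cell were read with the same molecules as the rule, so the comparisons describe the cells and are no independent support for them.

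The label was read against its markers. Sfrp5, a secreted Wnt antagonist of the early heart field, had 319 CPM (309 to 330) in Ttn+ Actc1-low cells, 416 CPM in Actc1-positive cells and 84.6 CPM (81.7 to 87.6) in cells low in both. Sphkap, an anchoring protein that binds sphingosine kinase and protein kinase A, had 118 CPM (112 to 125) in Ttn+ Actc1-low cells, 138 CPM in Actc1-positive cells and 27.3 CPM (25.7 to 29.0) in cells low in both. Nr2f1, a nuclear receptor of atrial and venous pole cells, had 119 CPM (112 to 126) in Ttn+ Actc1-low cells, 119 CPM in Actc1-positive cells and 31.2 CPM (29.5 to 33.0) in cells low in both. All 3 therefore stood near the level of Actc1-positive cells and above that of cells low in both, with log2 ratios of 1.90, 2.07 and 1.90 over cells low in both, and they did not set Ttn+ Actc1-low cells apart from Actc1-positive cells.

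These markers were unevenly spread over the 366 cells. Sphkap had a UMI in 327 cells and a median of 107 CPM (quartiles 48.0 and 178 CPM). Sfrp5 had a UMI in 289 cells, with a median of 198 CPM and quartiles of 33.4 and 540 CPM. Nr2f1 had a UMI in 257 cells, with a median of 56.5 CPM, a lower quartile of 0 and a highest cell at 979 CPM. After each cell was thinned to 15000 UMIs, 71.0% of Ttn+ Actc1-low cells, 79.4% of high-Actc1 cells and 32.2% of cells low in both had an Sfrp5 UMI (79.0%, 84.9% and 40.5% before thinning). In 274 control cells with at least 3 Cdh5 UMIs, the Cdh5 gene being an endothelial cadherin, the share was 7.30% thinned and 18.2% before, at a median depth of 54210 UMIs. For Nr2f1 the thinned share was 56.8% in Ttn+ Actc1-low cells, 63.4% in high-Actc1 cells, 27.6% in cells low in both and 12.8% in the Cdh5 cells.

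Markers of endoderm and endothelium were low in Ttn+ Actc1-low cells. The summed level of 12 endoderm genes was 20.5 CPM in Ttn+ Actc1-low cells, 87.8 CPM in intermediate-Actc1 cells, 19.2 CPM in high-Actc1 cells and 1170 CPM in cells low in both, and Foxa2, Foxa1 and Amn had no UMI in the 366 cells. The 10 pluripotency genes summed to 118 CPM in Ttn+ Actc1-low cells and 383 CPM in cells low in both. The 11 endothelial genes left after Cdh5 summed to 92.3 CPM in Ttn+ Actc1-low cells, 140 CPM in cells low in both and 260 CPM in the other control cells. Their sum was lower still in intermediate-Actc1 cells (77.3 CPM) and high-Actc1 cells (72.0 CPM). The 8 skeletal muscle genes summed to 76.4 CPM in Ttn+ Actc1-low cells and 46.9 CPM in cells low in both. Nearly all of it was Des, desmin, which heart muscle also makes and which had 73.4 CPM in Ttn+ Actc1-low cells and 40.5 CPM in cells low in both. Myod1, Myf5, Myog, Pax7 and Mymk of that list had no UMI in Ttn+ Actc1-low cells. The 10 mesenchymal genes left after Dcn and Lum were expressed throughout, at 1856 CPM in Ttn+ Actc1-low cells, 1328 CPM in high-Actc1 cells and 2015 CPM in cells low in both. Cells low in both are thus a mixed group: 154 of the 1052 carried endoderm or pluripotency UMIs past a limit set after the data were seen.

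Against cells low in both, most genes of the sarcomere and of calcium handling, and 15 of 23 cardiac transcription factors, stood higher in Ttn+ Actc1-low cells. Endoderm (7 of 7), pluripotency (5 of 7) and epicardial genes (3 of 4) stood lower. Tdgf1, 1 of the 7 pluripotency genes, stood higher, but it did not reach 10 CPM in both groups. Of 8650 genes at 10 CPM or more in either group, 433 passed 1.5-fold upwards (5.01%) and 306 downwards (3.54%), and the median log2 ratio of all genes was 0.04. The ratio is of CPM plus a prior of 1, and its interval is that of the counts. In these terms 5 of 6 measured thick filament genes were higher and none lower (median log2 ratio 2.72), 8 of 9 thin filament genes higher and none lower (1.19), 11 of 13 genes of the Z-disc and M-band higher and none lower (1.31), and 10 of 11 genes of calcium handling and ion channels higher and none lower (1.84). With all genes that had a UMI, the median of the calcium list was 0.87 and that of the thick filament 1.90. Of the 23 cardiac transcription factors 2 were lower (median 0.72; 0.55 without cells that carried endoderm or pluripotency UMIs). A gene that reaches 10 CPM only in the group where it is high had to differ. Among genes at 10 CPM or more in both groups the counts were 2 of 3, 6 of 7, 9 of 11, 5 of 6 and 9 of 17 higher. No endoderm gene reached 10 CPM in both groups, so their count was fixed by the filter. The 1 pluripotency gene that did was not lower, and 2 of 3 such epicardial genes were lower.

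Because the same molecules served the rule and the readout, each cell's UMIs were also split at random into equal portions, with the rule applied to 1 portion and the values taken from the other. That rule kept 544 cells. The median log2 ratios over cells low in both were then 2.71 for the thick filament, 1.03 for the thin filament, 1.10 for the Z-disc and M-band, 1.66 for calcium handling and 0.66 for the transcription factors. The lists stood in the same order as before, and the counts over all genes were 364 higher and 238 lower.

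Of the 5 lists the thick filament had the largest median ratio over cells low in both. Myl7, the atrial regulatory light chain, had 1831 CPM in Ttn+ Actc1-low cells and 293 CPM in cells low in both (log2 ratio 2.64, interval 2.61 to 2.68). Myl4, the atrial essential light chain, had 323 CPM in Ttn+ Actc1-low cells and 35.3 CPM in cells low in both (3.16, 3.10 to 3.29). Tnnt2, cardiac troponin T, had 709 CPM in Ttn+ Actc1-low cells and 121 CPM in cells low in both (2.54, 2.50 to 2.60). All of these differ by far more than counting error. Tnni1, the slow skeletal troponin I used by the embryonic heart, differed less, with 755 CPM in Ttn+ Actc1-low cells and 330 CPM in cells low in both (1.19, 1.15 to 1.23). Myocd, the coactivator of serum response factor that drives muscle genes, had 51.4 CPM in Ttn+ Actc1-low cells and 7.58 CPM in cells low in both (2.61, 2.55 to 2.97). The 12 largest ratios among genes at 50 CPM or more were those of Myl4, Myl7, Myocd, Ppp1r14c, Prkg1, Tnnt2, Ryr2, Sorbs2, Rbm24, Sphkap, Sh3bgr and Tnnc1. Ppp1r14c, an inhibitor of protein phosphatase 1, had 72.5 CPM in Ttn+ Actc1-low cells and 11.2 CPM in cells low in both, and Prkg1, the cGMP-dependent protein kinase, had 62.1 and 9.62 CPM in the same order.

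The genes lowest against cells low in both depended on which cells that group held. Ttr, Rbp4, Spink1, Apom, Ctsh and Epcam, genes of visceral endoderm and epithelium, and Dppa5a, a pluripotency gene, were among the 12 lowest, and Apom had no UMI in Ttn+ Actc1-low cells beside 54.9 CPM in cells low in both. Cells with at least 3 UMIs of Ttr, Spink1 and Epcam together, or of Dppa5a, Utf1 and Pou5f1 together, were then left out. This kept 346 of the 366 cells and 898 of the 1052, and the 306 lower genes became 164. The log2 ratios of Ttr and Spink1 changed sign, to 0.17 and 0.32. Both genes chose the cells left out, so the loss of their large ratios was fixed in advance. The lowest genes were then Igfbp2, a binding protein of insulin-like growth factors, at -2.63, and Slc2a1, the main glucose transporter of embryonic cells, at -2.26. They were followed by Msx2 at -1.70, Pmp22 at -1.68 and Msx1 at -1.64. Hand1, a bHLH factor of early cardiac and lateral mesoderm, had a log2 ratio of -1.50 there. With all cells Slc2a1 had 102 CPM (95.6 to 108) in Ttn+ Actc1-low cells, 110 CPM in Actc1-positive cells and 479 CPM (472 to 486) in cells low in both, so Ttn+ Actc1-low cells lay at the level of Actc1-positive cells.

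Against Actc1-positive cells, most contractile genes stood lower in Ttn+ Actc1-low cells, while cardiac transcription factors went both ways. Of 8575 genes, 131 were higher (1.53%) and 206 lower (2.4%), with a median log2 ratio of 0.06 over all genes; with TMM scaling the counts were 94 higher and 241 lower. Of measured list genes, 8 of 9 in the thick filament were lower and none higher (median -2.08), 8 of 10 in the thin filament lower and none higher (-1.23), 13 of 17 in the Z-disc and M-band lower and none higher (-1.15), and 8 of 12 in calcium handling lower and none higher (-0.98; -0.39, under 1.5-fold, with all genes that had a UMI). Among genes at 10 CPM or more in both groups, 5 of 6, 7 of 9, 9 of 13 and 7 of 11 were lower. Of 8 muscle RNA factors 1 was lower (-0.06), and of 23 transcription factors 5 were higher (Tbx3, Hand1, Irx3, Foxc2 and Mycn) and 4 lower (Nkx2-5, Myocd, Irx4 and Hopx), with a median of 0.03. Of the 21 transcription factors at 10 CPM or more in both groups, 3 were higher and 4 lower.

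**Figure D2:**
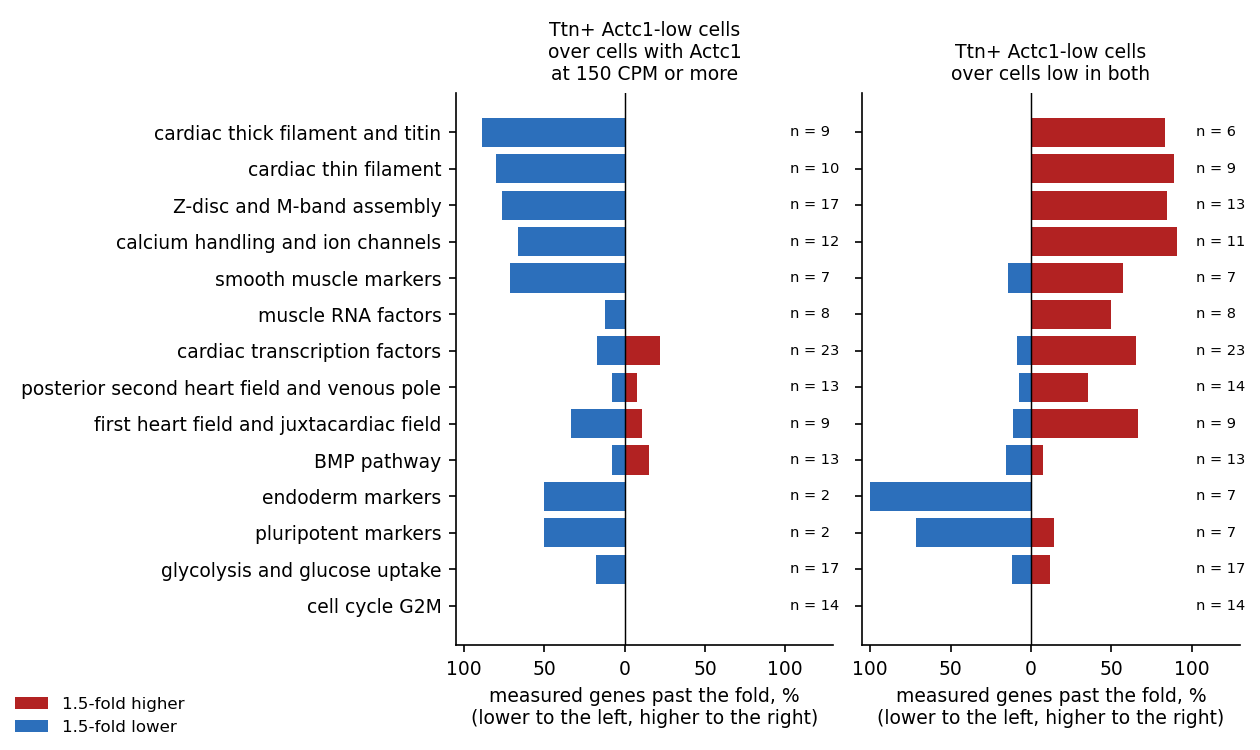
Percent of the measured genes of each list that passed 1.5-fold upwards (to the right) or downwards (to the left) in Ttn+ Actc1-low cells than in cells with Actc1 at 150 CPM or more (left panel) and than in cells low in both (right panel), with the number of measured genes at the right edge. The contractile lists point left in the left panel, with 8 of 9 thick filament genes lower, and right in the right panel, with 5 of 6 higher.

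The distance from high-Actc1 cells differed widely from gene to gene, as the level in Ttn+ Actc1-low cells taken as a percent of that in high-Actc1 cells shows. Over all 8223 genes at 10 CPM or more in high-Actc1 cells the median was 105% (quartiles 94.2 and 116%). The median was 18.4% for 9 thick filament genes, 34.3% for 9 thin filament genes, 37.9% for 18 genes of the Z-disc and M-band and 43.3% for 13 calcium and channel genes. It was 97.7% for 8 muscle RNA factors and 101% for 20 cardiac transcription factors. The same medians in intermediate-Actc1 cells were 34.0, 47.0, 57.6, 59.1, 97.5 and 104%, and in cells low in both they were 2.52, 13.4, 13.8, 11.3, 71.2 and 62.0%. A gene at 10 CPM only in high-Actc1 cells had to differ. Over genes at 10 CPM or more in both Ttn+ Actc1-low and high-Actc1 cells the medians in Ttn+ Actc1-low cells were 24.1% for 6 thick filament genes, 34.3% for 9 thin filament genes, 54.8% for 13 genes of the Z-disc and M-band and 46.2% for 11 calcium and channel genes. Over the same genes they were 43.6, 47.0, 66.8 and 74.3% in intermediate-Actc1 cells and 2.83, 13.4, 23.1 and 11.6% in cells low in both. The transcription factor median hides a spread from 26.4 to 261% between genes. This measure was chosen after the data were seen, and high-Actc1 cells are a group that the Actc1 limit keeps apart from Ttn+ Actc1-low cells.

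**Figure D3:**
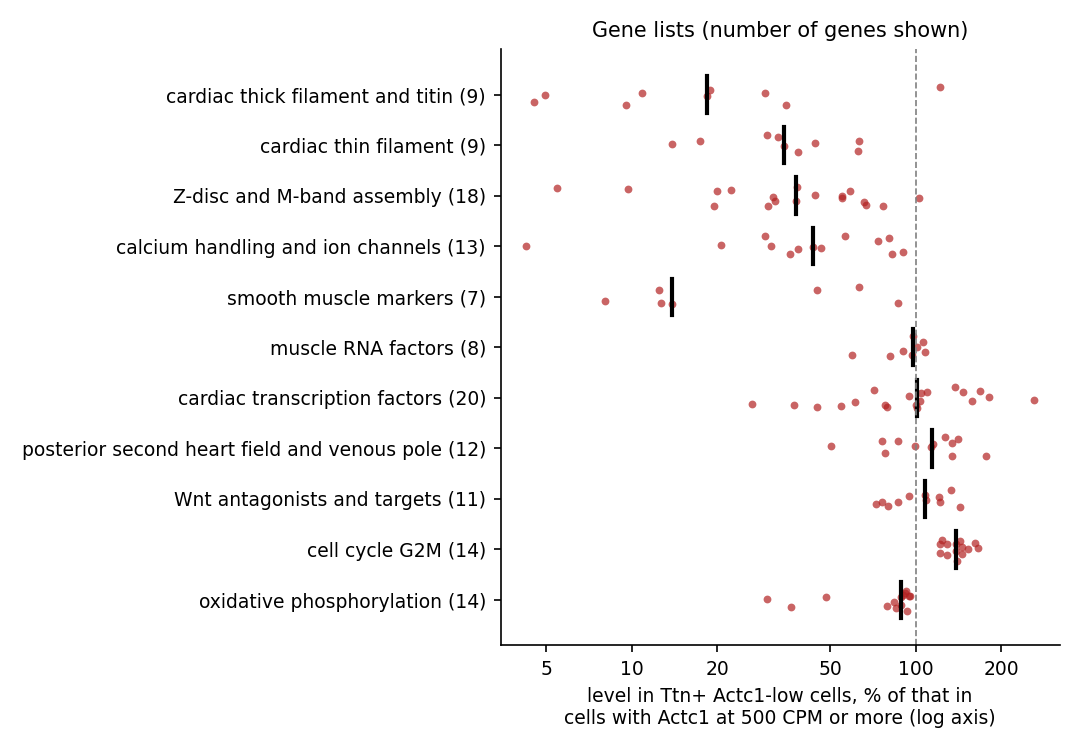
Level of each list gene in Ttn+ Actc1-low cells as a percent of its level in cells with Actc1 at 500 CPM or more, on a log axis, 1 point per gene at 10 CPM or more in those cells, with the list median as a black bar and a dashed line at 100%. Thick filament genes have a median of 18.4% and cardiac transcription factors a median of 101%.

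Within the thick filament Myl3, Myh6 and Myh7 were among the genes farthest from high-Actc1 cells. Myh6, the alpha heavy chain, had 6.94 CPM (5.45 to 8.72) in Ttn+ Actc1-low cells, 18.2 CPM in intermediate-Actc1 cells, 141 CPM in high-Actc1 cells and 1.54 CPM in cells low in both. Myh7, the beta heavy chain, had 19.9 CPM (17.3 to 22.8) in Ttn+ Actc1-low cells, 59.7 CPM in intermediate-Actc1 cells, 208 CPM in high-Actc1 cells and 1.20 CPM in cells low in both. Myl3, the ventricular essential light chain, had 21.1 CPM in Ttn+ Actc1-low cells, 50.1 CPM in intermediate-Actc1 cells, 468 CPM in high-Actc1 cells and 2.45 CPM in cells low in both. These are 4.92, 9.57 and 4.51% of the high-Actc1 level. Barcodes of the control library with 10 to 100 UMIs, which hold mostly free RNA, had 11.8 CPM of Myh6, 18.0 CPM of Myh7 and 36.5 CPM of Myl3, and the part of free RNA in the low levels of these genes was not tested. The light chains Myl7 and Myl4 reached 35.0 and 18.8% of the high-Actc1 level, with 5227 and 1719 CPM in high-Actc1 cells. Mybpc3, which binds myosin in the A-band, had 35.3 CPM in Ttn+ Actc1-low cells, 120 CPM in high-Actc1 cells and 4.33 CPM in cells low in both. Myh10, a non-muscle myosin, was the one thick filament gene not lower, with 346 CPM in Ttn+ Actc1-low cells and 284 CPM in high-Actc1 cells.

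Thin filament genes followed in the same direction by smaller steps. Tnnt2 had 709 CPM (693 to 725) in Ttn+ Actc1-low cells, 1117 CPM in intermediate-Actc1 cells and 2377 CPM in high-Actc1 cells, and Tnni1 had 755, 958 and 1202 CPM in the same order. Tnni1 was thereby at 62.8% of the high-Actc1 level and Tnnt2 at 29.8%. Tnnc1, cardiac troponin C, had 184 CPM in Ttn+ Actc1-low cells, 339 CPM in intermediate-Actc1 cells and 1055 CPM in high-Actc1 cells. Tpm1, a tropomyosin, had 1372 CPM in Ttn+ Actc1-low cells, 3579 CPM in high-Actc1 cells and 865 CPM in cells low in both. Acta2, smooth muscle actin, had 391 CPM in Ttn+ Actc1-low cells, 2823 CPM in high-Actc1 cells and 238 CPM in cells low in both. Of 7 smooth muscle genes 5, Acta2 among them, were lower than in Actc1-positive cells, beside 2.4% of all genes. Tagln, another of these 5, had 31.8 CPM in Ttn+ Actc1-low cells, 396 CPM in high-Actc1 cells and 57.8 CPM in cells low in both.

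Genes of the Z-disc, the M-band and their assembly spread widely in their distance from high-Actc1 cells. Smyd1, a methyltransferase that assists myosin assembly, had 115 CPM in Ttn+ Actc1-low cells, 150 CPM in high-Actc1 cells and 45.6 CPM in cells low in both. Unc45b, a myosin chaperone, had 172 CPM in Ttn+ Actc1-low cells, 312 CPM in high-Actc1 cells and 51.3 CPM in cells low in both. Nebl, nebulette of the Z-disc, had 118 CPM in Ttn+ Actc1-low cells and 267 CPM in high-Actc1 cells. Actn2, the alpha-actinin that crosslinks actin in the Z-disc, was at 2.72 CPM in Ttn+ Actc1-low cells, 28.2 CPM in high-Actc1 cells and 2.09 CPM in cells low in both, so its level in Ttn+ Actc1-low cells was near that of cells low in both. Ankrd1, a titin-binding stress-responsive protein, had 4.69 CPM in Ttn+ Actc1-low cells, 86.4 CPM in high-Actc1 cells and 2.79 CPM in cells low in both. Rbm24, an RNA-binding protein that promotes muscle splicing, had 282 CPM in Ttn+ Actc1-low cells, 473 CPM in high-Actc1 cells and 66.2 CPM in cells low in both, and was the one RNA factor lower than in Actc1-positive cells (log2 ratio -0.63). That ratio was -0.41 with a Ttn limit of 500 CPM and -0.50 when cells were thinned first, both under 1.5-fold. Rbm20, the splicing factor that regulates titin isoforms, had 30.6 CPM in Ttn+ Actc1-low cells, 31.4 CPM in high-Actc1 cells and 18.6 CPM in cells low in both.

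**Figure D4:**
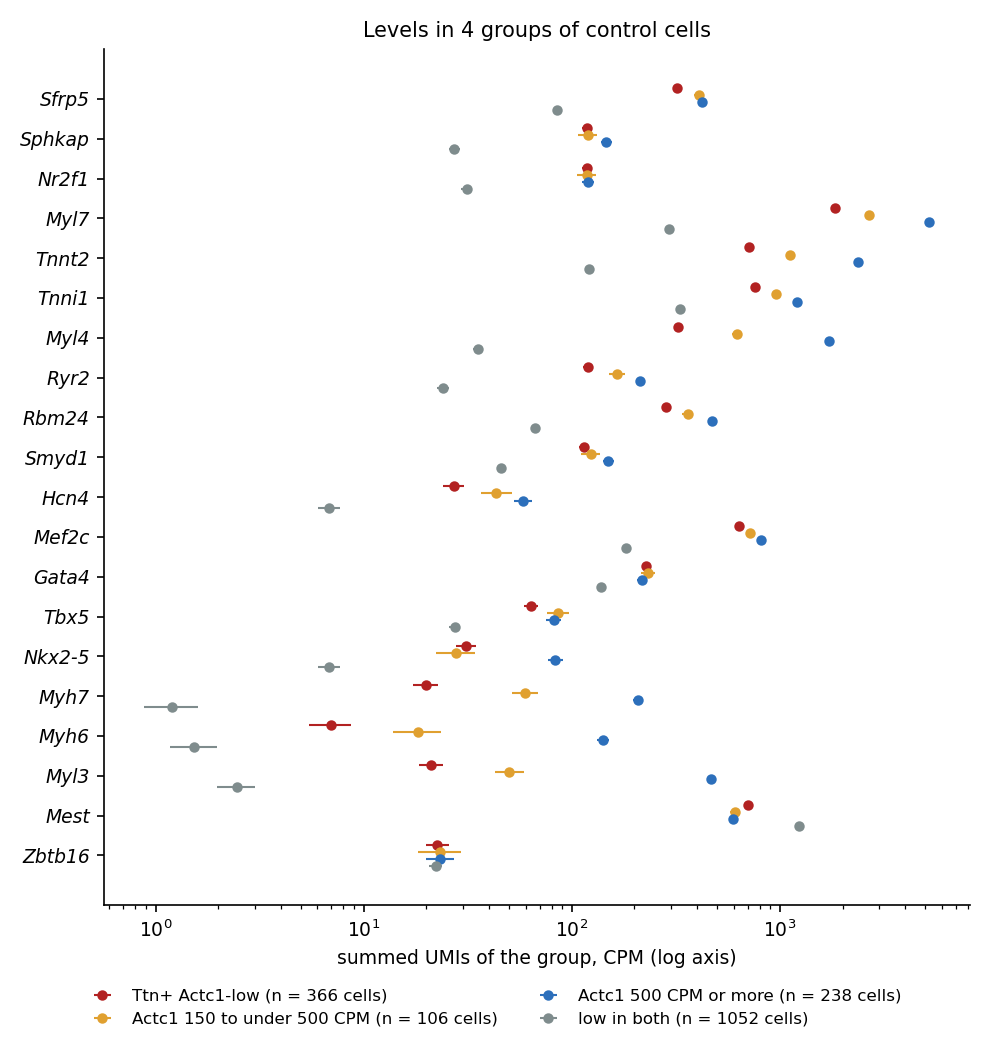
Levels of 20 genes in CPM on a log axis, from the summed UMIs of Ttn+ Actc1-low cells, cells with Actc1 at 150 to under 500 CPM, cells with Actc1 at 500 CPM or more and cells low in both, with bars for exact Poisson 95% intervals. Myh6, Myh7 and Myl3 stay far below the high-Actc1 cells, while Nr2f1, Gata4 and Zbtb16 have like levels in both.

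Channel and calcium genes lay between cells low in both and high-Actc1 cells. Ryr2, the calcium release channel of the sarcoplasmic reticulum, had 120 CPM (113 to 127) in Ttn+ Actc1-low cells, 165 CPM in intermediate-Actc1 cells, 213 CPM in high-Actc1 cells and 24.1 CPM in cells low in both. Hcn4, the pacemaker channel, had 27.0 CPM in Ttn+ Actc1-low cells, 58.5 CPM in high-Actc1 cells and 6.80 CPM in cells low in both. Pln, phospholamban, the inhibitor of the calcium pump, was farther off, with 23.8 CPM in Ttn+ Actc1-low cells, 116 CPM in high-Actc1 cells and 1.80 CPM in cells low in both. Atp2a2, that pump, had 251 CPM in Ttn+ Actc1-low cells, 580 CPM in high-Actc1 cells and 113 CPM in cells low in both.

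The transcription factors differed in direction against Actc1-positive cells. Gata4 had 226 CPM (217 to 235) in Ttn+ Actc1-low cells, 222 CPM in Actc1-positive cells and 138 CPM in cells low in both, a log2 ratio of 0.03 (-0.06 to 0.11) over Actc1-positive cells. Mef2c, which binds A/T-rich sites in muscle promoters, had 637 CPM in Ttn+ Actc1-low cells, 780 CPM in Actc1-positive cells and 182 CPM in cells low in both. Tbx5, a factor of the first heart field and atria, had 63.6 CPM in Ttn+ Actc1-low cells, 83.1 CPM in Actc1-positive cells and 27.4 CPM in cells low in both. Nkx2-5, a homeobox factor of the heart tube, was lower than in Actc1-positive cells, with 31.0 CPM (27.7 to 34.5) in Ttn+ Actc1-low cells, 27.8 CPM in intermediate-Actc1 cells and 83.3 CPM (76.5 to 90.4) in high-Actc1 cells. Its level in Ttn+ Actc1-low cells was thus that of intermediate-Actc1 cells, and it was 6.80 CPM in cells low in both. Hand1 went the other way, with 277 CPM in Ttn+ Actc1-low cells, 212 CPM in intermediate-Actc1 cells, 106 CPM in high-Actc1 cells and 649 CPM in cells low in both.

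Few genes stood higher in Ttn+ Actc1-low cells than in Actc1-positive cells. Msx1, a homeobox target of BMP signalling, had 77.8 CPM (72.6 to 83.3) in Ttn+ Actc1-low cells, 29.6 CPM in Actc1-positive cells and 200 CPM in cells low in both, a log2 ratio of 1.37 (1.20 to 1.59) over Actc1-positive cells. Crabp1, which binds retinoic acid in the cytoplasm, had 75.3 CPM in Ttn+ Actc1-low cells, 31.8 CPM in Actc1-positive cells and 111 CPM in cells low in both (1.22). Hand1 followed at 0.98 (0.90 to 1.08). The 12 largest also held Shisa2, Col3a1, Efnb1, Rgs5, Gngt2, Gja1, Sesn3, Col18a1 and Mycn. Gja1 (0.68), Gngt2 (0.75) and Mycn (0.65) were under 1.5-fold with a UMI minimum of 30000, at 0.51, 0.57 and 0.54. The ratios of Msx1 and Hand1 were 0.44 and 0.49, and those of Col3a1 and Efnb1 0.05 and 0.38, when the limits on Isl1, Dcn, Lum, Upk3b and Cdh5 were dropped. Of 9 mesenchymal genes 3 were higher and none lower (median 0.51), and no G2M gene of 14 passed 1.5-fold in either direction (median 0.30). Of all genes, 1.53% were higher and 2.4% lower.

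Some genes of the venous pole and of Wnt signalling stood near the level of Actc1-positive cells in Ttn+ Actc1-low cells. Wnt2, a ligand of the posterior second heart field, had 255 CPM (245 to 265) in Ttn+ Actc1-low cells, 281 CPM in Actc1-positive cells and 125 CPM in cells low in both. Nr2f2, a nuclear receptor of atrial and venous cells, had 167 CPM in Ttn+ Actc1-low cells, 156 CPM in Actc1-positive cells and 71.3 CPM in cells low in both. Shox2, a homeobox factor of the sinus venosus, had 28.3 CPM in Ttn+ Actc1-low cells, 35.3 CPM in Actc1-positive cells and 4.07 CPM in cells low in both. Of the posterior second heart field list, 1 of 13 measured genes was higher and 1 lower than in Actc1-positive cells, while 5 of 14 were higher and 1 lower than in cells low in both (median 0.37). Of its 12 genes at 10 CPM or more in both Ttn+ Actc1-low cells and cells low in both, 4 were higher and 1 lower. Of the Wnt list none of 13 passed 1.5-fold against Actc1-positive cells. Of all genes, 1.53% were higher and 2.4% lower than in Actc1-positive cells, so counts this small do not set these lists apart. Against cells low in both, 5.01% of all genes were higher and 3.54% lower.

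The values within the 366 cells can be ordered by their Ttn level, which the rule set only at its lower end. The bands of 300 to under 600, 600 to under 1200 and 1200 CPM or more held 160, 132 and 74 cells and were set after the data were seen. Over the bands Tnnt2 had 538, 691 and 1116 CPM, Myl7 had 1441, 1979 and 2414 CPM, and Myl4 had 206, 338 and 550 CPM. Ryr2 had 79.6, 120 and 207 CPM and Rbm24 had 201, 304 and 421 CPM. The contractile genes were thus higher in each higher band. Nr2f1 had 126, 109 and 119 CPM, Gata4 had 236, 211 and 233 CPM and Sfrp5 had 307, 304 and 373 CPM, with no such order. The third marker, Sphkap, was ordered, with 99.5, 119 and 158 CPM, as were the factors Mef2c with 525, 648 and 864 CPM and Tbx5 with 58.2, 65.3 and 72.4 CPM. Mest, an imprinted gene of the mesoderm, had 787, 707 and 524 CPM. Across the 366 cells, Spearman's rho with Ttn was 0.41 for Ryr2, 0.40 for Tnnt2 and Rbm24, 0.36 for Myl7, 0.32 for Myl4, 0.26 for Mef2c and 0.19 for Sphkap, and 0.03 for Sfrp5, 0.02 for Nr2f1 and -0.01 for Gata4; these are cells of 1 library and share its depth, so the values are a description.

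**Figure D5:**
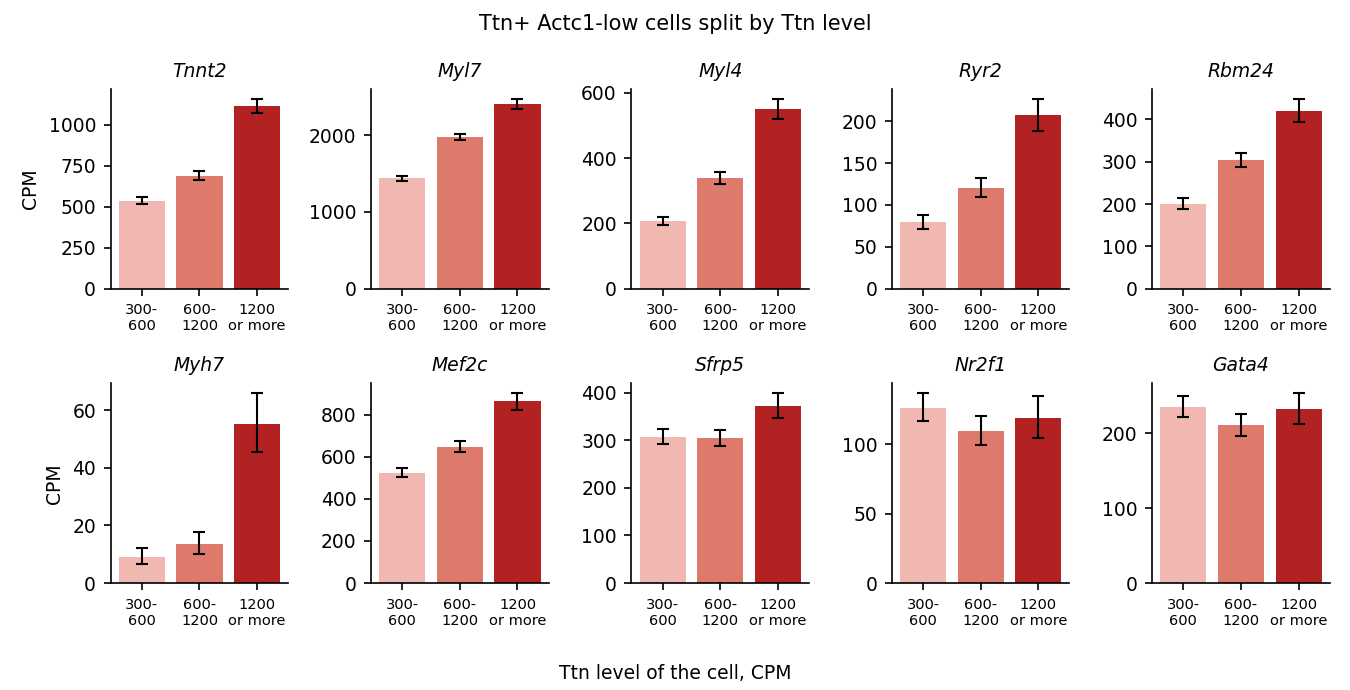
Levels of 10 genes in CPM from summed UMIs of Ttn+ Actc1-low cells in 3 bands of Ttn level (160, 132 and 74 cells), with exact Poisson 95% intervals. Tnnt2 stands at 538, 691 and 1116 CPM from the lowest to the highest band, while Gata4 stands at 236, 211 and 233 CPM.

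A split by Actc1 gave a like picture. The 163 cells with at least 1 Actc1 UMI had a median of 27380 UMIs and the 203 cells with none had 24725. Tnnt2 had 848 CPM in cells with an Actc1 UMI and 585 CPM in cells with none, Myl4 had 420 and 236 CPM in the same order, and Myh7 had 31.1 and 9.80 CPM. The 203 cells without any Actc1 UMI thus still held Tnnt2 above the 121 CPM of cells low in both. Sfrp5 (325 and 314 CPM), Nr2f1 (124 and 114 CPM) and Gata4 (228 and 225 CPM) were close between the same groups. After thinning to 15000 UMIs, 29.8% of Ttn+ Actc1-low cells, 10.6% of cells low in both and 6.93% of the 274 Cdh5 cells had an Actc1 UMI (44.5%, 20.8% and 20.1% before thinning), and barcodes with 10 to 100 UMIs held 229 CPM of Actc1 beside 27.0 CPM in Ttn+ Actc1-low cells.

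Against all 5988 other control cells, 392 of 8632 genes were higher (4.54%) and 326 lower (3.78%), with a median log2 ratio of 0.03; with TMM scaling the counts were 281 higher and 472 lower. The largest ratios among genes at 50 CPM or more included those of Nr2f1 (1.94), Sfrp5 (1.88), Ppp1r14c, Fbxo32, Igfbp5, Lbh and Sphkap. Igfbp5, a binding protein of insulin-like growth factors, had 476 CPM in Ttn+ Actc1-low cells and 155 CPM in the other cells, and Lbh, a nuclear cofactor of the limb bud and heart, had 211 CPM in Ttn+ Actc1-low cells and 71.6 CPM in the other cells. The other cells hold the Actc1-positive cells too, so Myh7 was level (19.9 CPM in Ttn+ Actc1-low cells and 19.8 CPM in the others). Mest was lower, with 705 CPM (689 to 721) in Ttn+ Actc1-low cells, 597 CPM in Actc1-positive cells and 1655 CPM in the other control cells. Ctla2a, Ramp2 and Hoxb6 were among the lowest, with Ctla2a at 1.97 CPM in Ttn+ Actc1-low cells and 103 CPM in the others. All 8 measured endothelial genes were lower, in cells chosen without a Cdh5 UMI. Only 1 of them reached 10 CPM in both groups, and the others had to differ.

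In a neighbour graph over 2000 variable genes, 25.6% of the nearest neighbours of Ttn+ Actc1-low cells were such cells themselves, which made up 5.76% of control cells. Of all these neighbours, 5.56% were intermediate-Actc1 cells (1.67% of control cells), 6.48% high-Actc1 cells (3.75%) and 12% cells low in both (16.6%). Cells with Actc1 at 150 CPM or more that failed another limit made up 11.2% (7.98% of control cells). The remaining cells that failed another limit, low in both Ttn and Actc1, made up 15.6% (54.5% of control cells). A further 23.7% were cells with Ttn at 300 CPM or more and Actc1 under 150 CPM that failed another limit, which made up 9.82% of control cells. Cells on both sides of the limits on the other genes were thus neighbours.

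The largest such set was the 422 cells that failed by Isl1 alone, a comparison added after the data were seen. They had a median of 4 Isl1 UMIs, 35072 UMIs in all and 574 CPM of Ttn. Ttn+ Actc1-low cells were not free of Isl1: 132 of the 366 had 1 Isl1 UMI, in a group with a median of 26104 UMIs. Of 8594 genes, 101 were higher in Ttn+ Actc1-low cells (1.18%) and 178 lower (2.07%). Some contractile genes were higher in Ttn+ Actc1-low cells: 2 of 6 thick filament genes (Myl4 and Mybpc3) and 1 of 9 thin filament genes (Tnni3) were higher and none lower, and of 14 genes of the Z-disc and M-band 2 were higher and 1 lower. Of the 13 Z-disc and M-band genes at 10 CPM or more in both groups, 2 were higher and none lower. Myl4 had 323 CPM in Ttn+ Actc1-low cells and 158 CPM in the Isl1 cells, and Tnnt2 had 709 CPM in Ttn+ Actc1-low cells and 547 CPM in the Isl1 cells. Sfrp5 had 319 CPM in Ttn+ Actc1-low cells and 147 CPM in the Isl1 cells, Nr2f1 had 119 and 54.7 CPM in the same order, and Mab21l2, a gene of the juxtacardiac field, had 93.3 and 38.7 CPM. Crabp1 had 75.3 CPM in Ttn+ Actc1-low cells and 227 CPM in the Isl1 cells, and Irx3, an Iroquois homeobox factor, had 28.0 and 85.3 CPM. Of 14 venous pole genes 4 (Wnt2, Nr2f1, Nr2f2 and Shox2) were higher and none lower. Of the 12 venous pole genes at 10 CPM or more in both groups, 3 were higher and none lower. Of 14 G2M genes 12 were lower (median -0.85), while of 14 S phase genes none passed 1.5-fold (median -0.01). A limit in UMIs keeps deeper cells out, and the part of depth in the G2M difference was not tested.

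In the knockout library the same rule kept 22 of 9449 cells, or 0.233% (0.146 to 0.352%), beside 366 of 6354, or 5.76% (5.20 to 6.36%), in the control. The rule fixed Ttn and Actc1 in both, and the 22 cells, with 774673 UMIs in all, had 625 CPM (570 to 683) of Ttn beside 864 CPM (846 to 882) in the control cells. Several genes that the rule left free were lower in the knockout cells. Sfrp5 had 11.6 CPM (5.31 to 22.1) in the knockout cells and 319 CPM (309 to 330) in the control cells, and Nr2f1 had 7.75 CPM (2.84 to 16.9) in the knockout cells and 119 CPM (112 to 126) in the control cells. Sphkap was nearer, with 67.1 CPM (50.1 to 88.0) in the knockout cells and 118 CPM (112 to 125) in the control cells. Tnnt2 had 218 CPM (187 to 254) in the knockout cells and 709 CPM in the control cells, and Myl7 had 369 CPM (328 to 415) in the knockout cells and 1831 CPM in the control cells. Mef2c had 298 CPM in the knockout cells and 637 CPM in the control cells, and Gata4 had 145 CPM in the knockout cells and 226 CPM in the control cells. Sums over other lists went both ways. The 20 genes of the extracellular matrix and adhesion summed to 2568 CPM in the knockout cells and 1550 CPM in the control cells. The 16 oxidative phosphorylation genes summed to 3614 and 3958 CPM in the same order. The 10 pluripotency genes summed to 969 CPM in the knockout cells and 118 CPM in the control cells, and their part in these differences was not tested. The 22 cells come from 1 culture and may be of several kinds.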

How the data were processed

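The authors deposited raw UMI counts per gene and barcode, 1 matrix each for the control and the Zbtb16 knockout, written by Cell Ranger 4 per the file headers. Cell Ranger, R 4.1.1, GRCm39 and mm39 are named in the submitters' processing notes. Libraries were made with an MGI DNBelab C Series droplet kit, per the labels' protocols, and how its barcodes came to Cell Ranger form is not stated in the sources used here.

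Barcodes with at least 15000 UMIs, 500 genes or more and mitochondrial UMIs of 10% or less were kept as cells, which held 96.0% of the knockout and 94.8% of the control UMIs. UMIs were summed over the cells of a group and divided by the group's total for CPM. Log2 ratios used a prior of 1 CPM, intervals of ratios came from the counts without it, and 1.5-fold was the threshold. List genes had to reach 10 CPM in at least 1 group of a comparison to be counted. Named genes were, at 50 CPM or more in either group and without the 7 rule genes, predicted, ribosomal or mitochondrial genes, the 12 largest ratios in each direction against cells low in both and against Actc1-positive cells, and the 8 largest against the other cells and the Isl1 cells. In each list they were up to 4 members by CPM and 2 by ratio, and a fixed set of cardiac genes and Zbtb16; the other genes whose values are given were chosen after the values were seen. 1 gene picked by this naming rule is not reported here. The members and lists were chosen with earlier results of these data known. No doublet caller was run; the top 6% of cells by UMIs were left out as an alternative.

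Neighbours (15 per cell) came from 2000 variable genes and 30 principal components in scanpy 1.11.5, and TMM factors from edgeR 4.0.16 under R 4.3.3, with the rest in Python 3.11.15. The calculation was tested on simulated data. Alternatives covered the UMI and mitochondrial limits, the limits on Ttn, Actc1 and the other genes, thinning, the split of UMIs, the prior, TMM scaling, the filter on low values, weighting cells equally, depth and free RNA. The comparison without endoderm or pluripotency cells was added after the data were seen.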

Additional observations from a re-analysis of the deposited data

How the results depend on the processing

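No paired analysis was possible because there was 1 library per genotype, so that nothing was tested. The number of Ttn+ Actc1-low cells was 117 with a UMI minimum of 30000, 990 without the limits on the other genes and 613 when cells were thinned to 15000 UMIs first, against 366 as reported. Counts of genes depended most on the filter on low values. At 50 CPM or more, 155 genes were higher and 93 lower than in cells low in both, 21 and 89 than in Actc1-positive cells, and 147 and 116 than in the other control cells. With all genes that had a UMI, these counts were 886 and 923, 547 and 481, and 823 and 805. The 131 genes higher than in Actc1-positive cells became 210 with a UMI minimum of 30000, 48 without the limits on the other genes and 62 with a prior of 5 CPM. TMM scaling gave 358 higher and 372 lower against cells low in both, 94 and 241 against Actc1-positive cells, and 281 and 472 against the other control cells. Without cells that carried endoderm or pluripotency UMIs, 164 genes were lower than in cells low in both. The log2 ratios of Cited1, Ctsh, Spink1 and Ttr over cells low in both were then 0.031, 0.27, 0.32 and 0.17, and those of Spink1 and Ttr over the other control cells 0.52 and 0.16. Spink1 and Ttr were among the genes that chose the cells left out, so the loss of their large ratios was fixed by that choice. The alternative without endoderm or pluripotency cells was run on 51 of 91 ratios of named genes and 58 of 90 list medians. Among named genes past 1.5-fold, no other sign changed under the alternatives run. The sign of 24 of the 90 list medians changed under at least 1 alternative, all of them under 1.5-fold as reported, and none of the 29 past 1.5-fold changed sign. Over the other control cells the thick filament median of 0.52 became -0.13 with equal weight per cell and -0.08 without the top 6% of cells by UMIs, and that of the second heart field, 0.58, became -0.04 with all genes that had a UMI. Over cells low in both, at 50 CPM or more, the Wnt median of -0.05 became 1.00 and that of the extracellular matrix, -0.25, became 0.39. Gata4 over cells low in both was 0.58 with a Ttn limit of 500 CPM, under 1.5-fold, and Mest was -0.42 with a UMI minimum of 30000. For the other moves the cause was not tested. Depth limits genes near 1 CPM, shares of cells with a UMI, and the 22 knockout cells most.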

Other observations

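Genes of energy use split within their lists. Against cells low in both, 2 of 13 measured oxidative phosphorylation genes were higher and none lower in Ttn+ Actc1-low cells, with a median log2 ratio of 0.00, beside 5.01% higher and 3.54% lower of all genes. One of them was Ppargc1a, a coactivator of mitochondrial genes, with 11.0 CPM in Ttn+ Actc1-low cells, 30.1 CPM in high-Actc1 cells and 0.86 CPM in cells low in both. The other was Cox7a1, a heart and muscle subunit of cytochrome c oxidase, with 25.5 CPM in Ttn+ Actc1-low cells, 52.9 CPM in high-Actc1 cells and 10.6 CPM in cells low in both. In this comparison Ppargc1a reached 10 CPM only in Ttn+ Actc1-low cells, so it had to differ. Of the 12 oxidative phosphorylation genes at 10 CPM or more in both groups, 1 was higher and none lower. In glycolysis, the muscle isoforms Pgam2 and Eno3 were higher and the transporters Slc2a1 and Slc2a3 lower, of 17 genes. Pgam2 had 143 CPM in Ttn+ Actc1-low cells, 345 CPM in high-Actc1 cells and 38.2 CPM in cells low in both, while Pgam1, the form of most tissues, had 708, 816 and 762 CPM in the same order.

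Among 14 imprinted genes, 2 were higher and 2 lower than in cells low in both, and 2 higher and none lower than in Actc1-positive cells. Of the 13 at 10 CPM or more in both groups of each comparison, 1 was higher and 2 lower, and 1 higher and none lower, in the same order. Of all genes, 5.01% were higher and 3.54% lower than in cells low in both, and 1.53% higher and 2.4% lower than in Actc1-positive cells. Igf2r, the receptor that clears Igf2, had 386 CPM in Ttn+ Actc1-low cells, 429 CPM in high-Actc1 cells and 253 CPM in cells low in both. Dlk1, a membrane protein related to Notch ligands, had 361 CPM in Ttn+ Actc1-low cells, 238 CPM in high-Actc1 cells and 575 CPM in cells low in both. Peg10 had 170 CPM in Ttn+ Actc1-low cells, 94.5 CPM in high-Actc1 cells and 198 CPM in cells low in both. Cdkn1c, an inhibitor of the cell cycle, had 855 CPM in Ttn+ Actc1-low cells, 1408 CPM in high-Actc1 cells and 826 CPM in cells low in both.

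Of the BMP ligands, Bmp2 had 59.4 CPM in Ttn+ Actc1-low cells, 90.7 CPM in intermediate-Actc1 cells, 118 CPM in high-Actc1 cells and 46.3 CPM in cells low in both, and Bmp4 had 130, 133, 112 and 151 CPM in the same order. Of 14 genes of G2M, 4 were lower and none higher than in the other control cells, beside 3.78% lower and 4.54% higher of all genes. Their median log2 ratio of -0.49 became 0.06 with a UMI minimum of 30000 and also without the limits on the other genes.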
